A study of Mus musculus with 4 samples.

Results

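The transcripts described here are those of Nefl, Nefm and Nefh, the genes of the light, medium and heavy neurofilament chains. They were taken by identifier (ENSMUST00000022639, ENSMUST00000022638 and ENSMUST00000093369, in that order) and are 3 of the 116912 transcripts listed in each table. All 3 were found in every library and passed the read minimum in every comparison. RNA came from dorsal root ganglia, which hold the cell bodies of sensory neurons next to the spinal cord, of adult mice without injury or 72 hours after the sciatic nerve was injured with forceps. The uninjured and injured bulk libraries were of whole-ganglion RNA from wild-type CD-1 mice, sequenced with a nanopore direct RNA kit. The uninjured and injured RiboTag libraries were of RNA that came down with an antibody against the HA tag, sequenced with a nanopore cDNA-PCR kit. Those mice had the genotype RPL22HA+/+;Advillin-Cre+ and came from a cross of B6N.129-Rpl22tm1.1Psam/J with B6.129P2-Aviltm2(cre)Fawa/J. In them Advillin-Cre, active in sensory neurons, switches on an HA-tagged copy of the ribosomal protein Rpl22. Each of these 4 groups was 1 sample, and how many animals were pooled in it is not given in the sources used here. No RiboTag library came from CD-1 mice and no bulk library from RiboTag mice, so kit, strain, genotype and immunoprecipitation cannot be told apart between the assays.

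Neurofilaments are the intermediate filaments of neurons and fill the shaft of thick axons. The light chain Nefl forms the filament core and assembles with Nefm and Nefh. The medium and heavy chains carry long tails that project from the filament and are heavily phosphorylated in axons. The amount of neurofilament helps to set the calibre of myelinated axons. In dorsal root ganglia the chains are most abundant in large neurons with myelinated axons, and the heavy chain is a common histological marker of those cells. Classical work on cut peripheral nerves describes reduced neurofilament synthesis in the injured neurons.

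A library held 592935 (uninjured bulk), 529332 (injured bulk), 207597 (uninjured RiboTag) or 79334 (injured RiboTag) estimated reads, each the mean of 3 numbered columns. The columns were treated as repeat estimates of 1 sample and not as replicates, so no p-value between groups is given. All intervals are 95% intervals of counting error, and they leave out the spread between animals. A pair of other transcripts took 31.2% of uninjured and 40.9% of injured RiboTag reads, but 0.0189% and 0.0191% of bulk reads. The tables hold no gene symbols and no transcript lengths, and no table used here pairs these transcript identifiers with symbols. Markers of neurons, glia and other cells, and other cytoskeletal genes, could therefore not be looked up, and the labelled tissue was not checked against them. Levels below are in TPM, which in these tables is reads scaled to a total of 1000000 and not per length, so each is compared between libraries and not between genes. In whole-ganglion RNA, fewer neurons and less RNA per neuron cannot be told apart.

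Neurofilament reads made up a larger part of RiboTag than of bulk RNA. The 3 transcripts together took 1.09% of uninjured bulk reads (exact binomial interval 1.06% to 1.11%) and 1.23% of injured bulk reads (1.20% to 1.26%). They took 3.14% of uninjured RiboTag reads (3.06% to 3.21%) and 1.76% of injured RiboTag reads (1.67% to 1.86%). With injury the share was thus higher in bulk and lower in RiboTag RNA. Of all reads after injury, only Nefm had a larger share in RiboTag than in bulk RNA, at 0.961% against 0.353%. Nefl had 0.622% against 0.651% and Nefh 0.181% against 0.226%. With the dominant pair left out of the totals, the RiboTag shares of the 3 transcripts together were 4.56% and 2.99%. Ranked by reads, Nefm and Nefl were in places 3 and 4 in both RiboTag libraries, directly after the dominant pair, and Nefh was in place 10 without injury and 17 after it. In bulk RNA Nefl was in place 9 without injury and 7 after it, Nefm in 24 and 18, and Nefh in 36 and 29.

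Nefl, the core subunit, had 6219 TPM in uninjured bulk RNA (exact Poisson interval 6019 to 6422) and 6514 in injured bulk RNA (6298 to 6735). In RiboTag RNA it had 11267 (10815 to 11733) without injury and 6218 (5678 to 6788) after it. The columns held 3616, 3675 and 3771 estimated reads in uninjured bulk, 3469, 3466 and 3409 in injured bulk, 2349, 2315 and 2353 in uninjured RiboTag, and 506, 480 and 494 in injured RiboTag RNA. Relative to library totals, uninjured RiboTag RNA stood above the other libraries, which lay close together. Uninjured bulk and injured RiboTag RNA had overlapping columns and differed by a log2 ratio of -0.0012 (-0.14 to 0.14), which includes no difference. The interval between the bulk libraries also included no difference. The closeness of injured RiboTag to bulk RNA depended on scaling. Without the dominant pair in the totals, Nefl was higher in injured RiboTag than in injured bulk RNA (log2 ratio 0.69, interval 0.55 to 0.83).

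Nefm, the medium chain, had 2680 TPM in uninjured bulk RNA (2550 to 2815) and 3534 in injured bulk RNA (3376 to 3699). In RiboTag RNA it had 16076 (15534 to 16629) without injury and 9609 (8935 to 10312) after it. Its columns held 1620, 1514 and 1633 reads in uninjured bulk, 1895, 1870 and 1847 in injured bulk, 3348, 3347 and 3317 in uninjured RiboTag, and 763, 778 and 746 in injured RiboTag RNA. The 4 libraries had a clear order for Nefm, from uninjured RiboTag through injured RiboTag and injured bulk to uninjured bulk. No columns of different libraries overlapped once scaled to their totals, and the interval of each step excluded no difference.

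Nefh, the heavy chain, had 1964 TPM in uninjured bulk RNA (1854 to 2081) and 2258 in injured bulk RNA (2131 to 2389). In RiboTag RNA it had 4019 (3749 to 4300) without injury and 1811 (1531 to 2137) after it. Its columns held 1163, 1154 and 1177 reads in uninjured bulk, 1164, 1214 and 1209 in injured bulk, 842, 837 and 824 in uninjured RiboTag, and 148, 124 and 159 in injured RiboTag RNA. As for Nefl, uninjured RiboTag RNA was the highest library. Relative to library totals, uninjured bulk and injured RiboTag RNA did not differ beyond counting error, and their columns overlapped. The log2 ratio of uninjured bulk to injured RiboTag RNA was 0.11 (-0.14 to 0.37). This too depended on scaling. Without the dominant pair in the totals, Nefh was higher in injured RiboTag than in injured bulk RNA (log2 ratio 0.45, interval 0.19 to 0.70). The injured RiboTag value rests on a mean of 143.7 reads, and its columns spanned 24.4% of their mean. In the other 11 combinations of member and library they spanned 0.928% to 7.54%.

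The first comparison asked whether injury changed neurofilament RNA in the whole ganglion. All 3 transcripts had values above those of uninjured bulk RNA by less than 2-fold. Nefm was 1.32-fold higher (log2 change 0.40, interval 0.30 to 0.50) and Nefh 1.15-fold higher (0.20, interval 0.08 to 0.32). Nefl had a log2 change of 0.07 (-0.00039 to 0.13), which includes no change. Under TMM scaling the interval of Nefl was 0.0095 to 0.14 and with the columns summed 0.03 to 0.11, both of which exclude it. A transcript was counted as higher or lower where the ratio reached 2-fold and its interval left out no change. By that rule 0 of the 3 members were counted, beside 9.76% of the 7739 transcripts with 20 or more reads over the libraries compared. For all 3 members the lowest injured column lay above the highest uninjured column, which held for 10.3% of transcripts tested. The median log2 change was 0.20 for the members and -0.0031 for all transcripts tested. Among the 301 other transcripts with 500 or more bulk reads, 20 had a higher log2 change than Nefm, 38 a higher one than Nefh and 109 a higher one than Nefl. The direction was the same for the 3 members under TMM scaling, DESeq2 size factors and totals without the dominant pair.

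The second comparison asked about the same transcripts in RiboTag RNA, which by design comes from tagged ribosomes of sensory neurons. That origin was not tested. In the injured RiboTag library all 3 had values below those of the uninjured one, and the distance was greatest for the heavy chain. The difference between the changes of Nefh and Nefl was -0.29 (-0.58 to 0.0013), an interval that just includes no difference. Nefh was 2.21-fold lower (log2 change -1.15, interval -1.41 to -0.89) and was counted as lower. Summed with the row of most reads within 10 rows of it, Nefh had -0.98 (-1.20 to -0.77), short of 2-fold. That row was picked by position and reads alone and is not known to belong to Nefh. Whether the sum describes Nefh was not tested. Nefl was 1.81-fold lower (-0.86, interval -1.0015 to -0.72), and Nefm 1.67-fold lower (-0.74, interval -0.86 to -0.63), both with intervals that exclude no change and short of 2-fold. Thus 1 of 3 members was counted as lower, beside 8.04% of 1866 transcripts tested. For all 3 the highest injured column lay below the lowest uninjured one, which held for 28% of transcripts tested. The median log2 change was -0.86 for the members and -0.21 for all transcripts tested, of which 62.5% had a value below 0. Of all transcripts tested, 10.6% had a lower value than Nefh, 18.2% a lower one than Nefl and 21.8% a lower one than Nefm.

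Other abundant RiboTag transcripts also tended to lie below 0 after injury. Of the 19 others with 500 or more RiboTag reads, the dominant pair among them, 13 had a log2 change below 0 and 3 were counted as lower, and their median was -0.60. Of these 19, 2 had a lower value than Nefh, 3 a lower one than Nefl and 6 a lower one than Nefm. Most reads in that sum came from the uninjured library. When abundant transcripts were instead taken from bulk RNA, with 500 or more reads in each bulk library, the 82 others measured in RiboTag RNA had a median of -0.13, and 7 of them were counted as lower. In that set 7 had a lower value than Nefh, 11 a lower one than Nefl and 16 a lower one than Nefm.

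**Figure D1:**
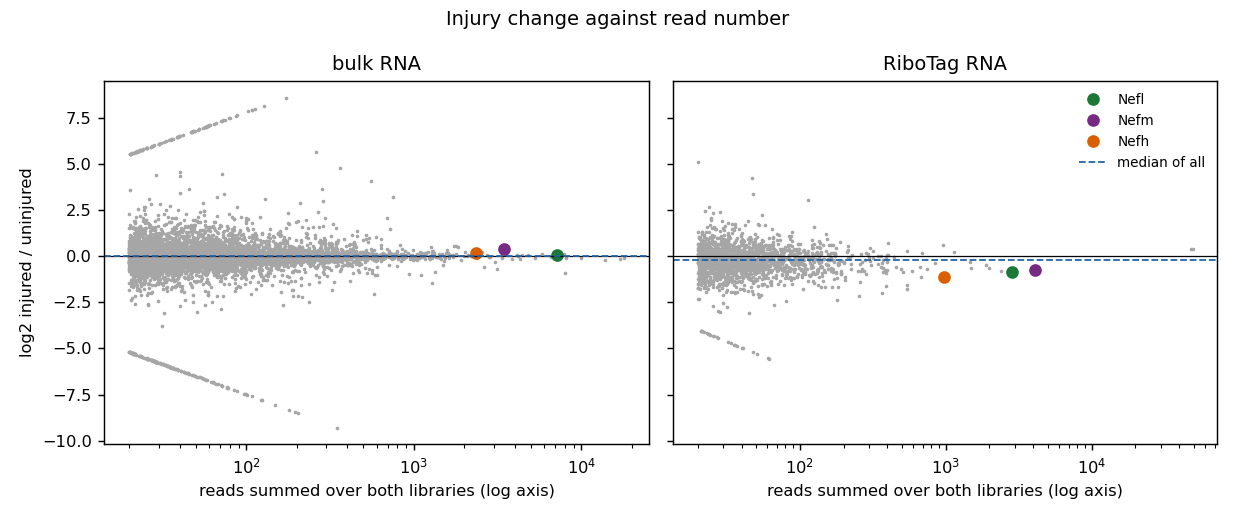
Log2 ratio of injured to uninjured RNA against reads summed over both libraries (log axis), for bulk RNA on the left and RiboTag RNA on the right. Grey points are transcripts with 20 or more reads, coloured points the neurofilament transcripts, and the dashed line is the median of all. The members lie at 0.07 to 0.40 in bulk RNA and at -1.15 to -0.74 in RiboTag RNA.

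The size of the RiboTag differences depended on how the libraries were scaled, and their direction did not. With the dominant pair left out of the totals, all RiboTag log2 changes were 0.22 higher. The values then were -0.64 for Nefl (interval -0.78 to -0.50), -0.52 for Nefm (-0.64 to -0.41) and -0.93 for Nefh (-1.19 to -0.67), and none of these values reached 2-fold (0 of 3 counted). TMM scaling gave -1.02, -0.91 and -1.31, with Nefl and Nefh counted as lower. DESeq2 size factors gave -0.98, -0.86 and -1.27, with Nefh counted. Relative to the median of all transcripts tested, which cancels the scaling, the changes were -0.65 for Nefl, -0.53 for Nefm and -0.94 for Nefh. That median depended on transcripts with few reads. It was 0.13 with 5 reads added and 0.50 with no read minimum. Relative to it Nefl, Nefm and Nefh were then at -0.98, -0.87 and -1.24, and at -1.35, -1.24 and -1.64. Equal added reads by themselves raise the change of transcripts with few reads, since the injured library was shallower. With a minimum of 50 reads the median was -0.24, and Nefl, Nefm and Nefh were at -0.61, -0.50 and -0.90 relative to it. Scaled to the summed reads of the 17 other abundant RiboTag transcripts outside the dominant pair, the changes were -0.39 (-0.54 to -0.26), -0.28 (-0.40 to -0.17) and -0.68 (-0.95 to -0.43). Those 17 were chosen by reads that came mostly from the uninjured library (13839 against 3840 after injury), which by itself favours transcripts that are lower after injury.

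**Figure D2:**
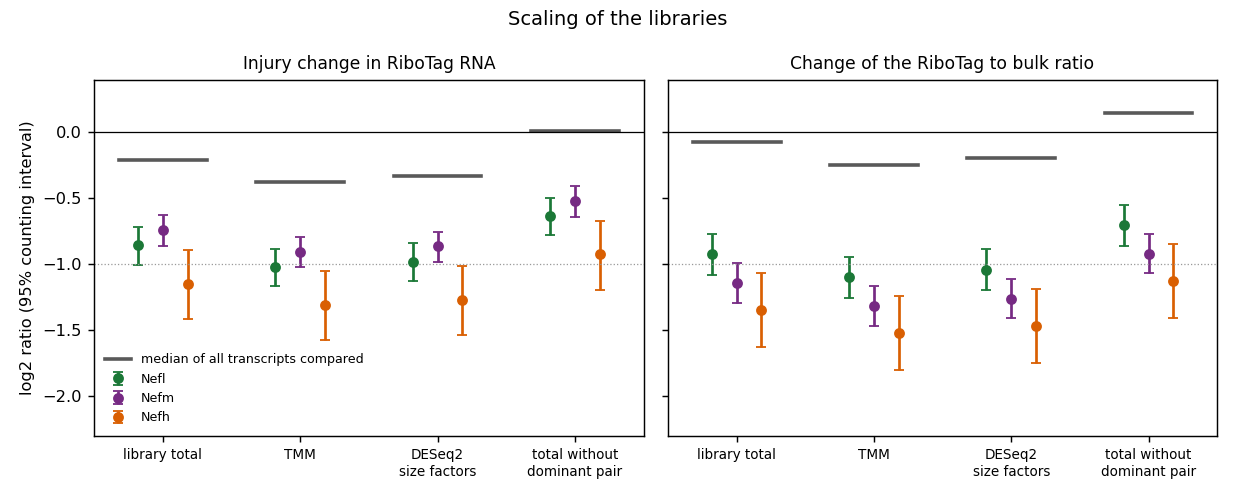
Log2 injury change in RiboTag RNA (left) and log2 shift of the RiboTag to bulk ratio (right panel) under 4 scalings of the libraries. Points are the members with 95% counting intervals, and grey bars are the median of all transcripts compared. A scaling shifts members and median by the same amount, so the distance between them is the same under each by construction. On the left Nefl, Nefm and Nefh lie below the median by 0.65, 0.53 and 0.94.

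The third comparison was between RiboTag and bulk RNA. Without injury all 3 transcripts had higher values in RiboTag RNA, and Nefm stood out. Nefm was 5.997-fold higher (log2 ratio 2.58, interval 2.50 to 2.67), Nefh 2.05-fold higher (1.03, interval 0.90 to 1.16) and Nefl 1.81-fold higher (0.86, interval 0.78 to 0.93). Nefm and Nefh, 2 of 3 members, were counted as higher, beside 14.5% of 6174 transcripts tested. Under TMM scaling, DESeq2 size factors and totals without the dominant pair, Nefl was counted as well, at 1.21, 1.14 and 1.40. All 3 had every RiboTag column above every bulk column, as had 18.9% of transcripts tested. The median log2 ratio was 1.03 for the members and -0.98 for all transcripts tested. Among the 97 other transcripts with 500 or more reads in each bulk library, 1 had a higher ratio than Nefm 5 a higher one than Nefh and 5 a higher one than Nefl, and the median was -2.65. That set was chosen on the denominator of the ratio. Among the 143 others that reached 500 reads over both libraries, 11 had a higher ratio than Nefm, 21 a higher one than Nefh and 21 a higher one than Nefl, with a median of -2.23.

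After injury the ratio of RiboTag to bulk RNA was high for Nefm alone among the members. Nefm was 2.72-fold higher in RiboTag RNA (log2 ratio 1.44, interval 1.32 to 1.56), so 1 of 3 members was counted as higher, beside 7.69% of 5045 transcripts tested. Nefl had a log2 ratio of -0.07 (-0.21 to 0.07), which includes no difference. Nefh had -0.31 (-0.57 to -0.06), but this depended on scaling. It was -0.13 (-0.39 to 0.12) with TMM and -0.15 (-0.41 to 0.10) with DESeq2 size factors, which include no difference. With totals that leave out the dominant pair it was 0.45 (0.19 to 0.70), and Nefl was 0.69 (0.55 to 0.83). All RiboTag columns lay above the bulk columns for Nefm, as for 11.3% of transcripts tested. They lay below for Nefl and Nefh, as for 54.8% of transcripts tested. Columns were scaled to their totals here, and their order under the other scalings was not examined. The median of all transcripts tested was -1.25, and each member lay above it, by 2.69 (Nefm), 1.18 (Nefl) and 0.93 (Nefh). The median was 0.18 with 5 reads added and 0.86 with no read minimum. Nefl and Nefh then lay below it, by -0.23 and -0.45 and by -0.93 and -1.18, while Nefm lay above it. Reads are added equally to libraries of unequal depth, which by itself raises this ratio for transcripts with few reads. With a minimum of 50 reads the median was -1.68, and Nefl, Nefm and Nefh lay above it by 1.61, 3.12 and 1.36.

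The fourth comparison asked how injury shifted the ratio of RiboTag to bulk RNA, that is, the difference of the injury changes in the 2 assays. It uses the same libraries as the comparisons above and is no separate evidence. A constant effect of kit or strain on a transcript cancels in it. A response of glia or other non-neuronal cells in bulk RNA does not. An effect of kit, strain or immunoprecipitation that differs between the injured and the uninjured library does not cancel either. All 3 members had negative values. Nefh had a log2 change of -1.35 (-1.63 to -1.07), Nefm -1.14 (-1.29 to -0.99) and Nefl -0.92 (-1.08 to -0.77). Nefh and Nefm, 2 of 3 members, were counted as lower, beside 3.61% of 4905 transcripts tested. The median was -1.14 for the members and -0.07 for all transcripts tested. Of all transcripts tested, 9.60% had a lower value than Nefh, 12.5% a lower one than Nefm and 17.2% a lower one than Nefl. Among the 338 others with 500 or more reads over the 4 libraries, 34 were counted as lower and 6 as higher. Their median was -0.22, and 25 had a lower value than Nefh, 35 a lower one than Nefm and 60 a lower one than Nefl. Of the 89 others with 500 or more reads in each bulk library, 9 were counted as lower and 1 as higher. Without the dominant pair in the totals the values were -1.13, -0.92 and -0.70 for Nefh, Nefm and Nefl, and only Nefh was counted. TMM scaling and DESeq2 size factors each had all 3 counted as lower.

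**Figure D3:**
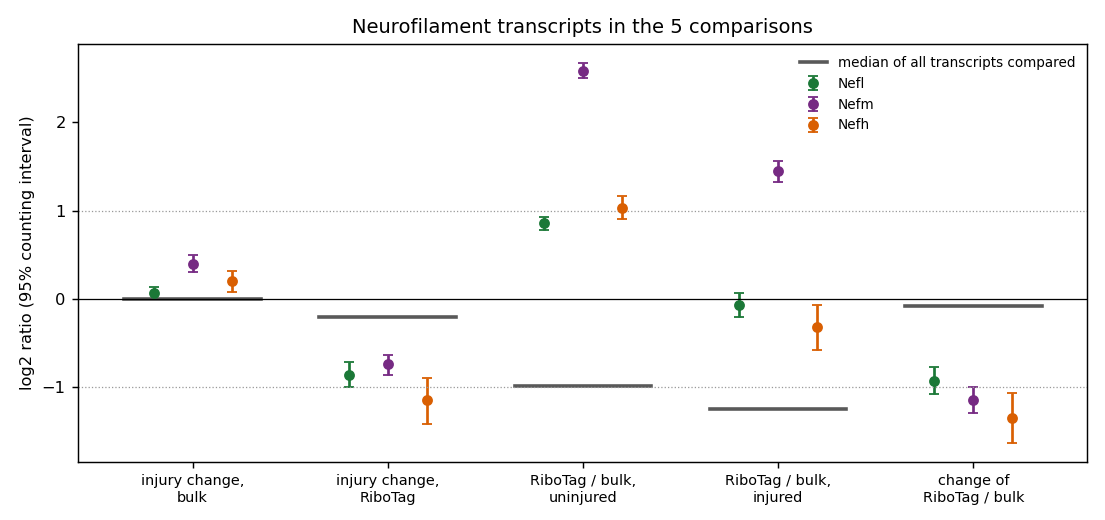
Log2 ratios of the neurofilament transcripts with 95% counting intervals, for the injury change in each assay, the RiboTag to bulk ratio in each state and the change of that ratio. Grey bars are the median of all transcripts compared and dotted lines mark 2-fold. The members lie above the median in bulk injury change and in both RiboTag to bulk ratios, and below it in the RiboTag injury change and in the change of the ratio. For the ratio after injury this turns for Nefl and Nefh with 5 reads added or no read minimum. Reads added equally to libraries of unequal depth raise that median through transcripts with few reads.

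Ratios between members within a library do not depend on how the libraries are scaled. The make-up of the neurofilament reads differed most between the assays. Nefm gave 24.7% of the triplet's reads in uninjured bulk RNA (exact binomial interval 23.6% to 25.7%) and 51.3% in uninjured RiboTag RNA (50.03% to 52.5%). Nefl gave 57.2% (56.0% to 58.5%) and 35.9% (34.8% to 37.1%), and Nefh 18.1% (17.2% to 19.0%) and 12.8% (12.0% to 13.6%). These are shares of reads and not per length, so they are read across libraries. The log2 ratio of Nefl to Nefm reads was 1.73 lower in uninjured RiboTag than in uninjured bulk RNA (difference -1.73, normal interval -1.84 to -1.61) and 1.51 lower after injury (-1.51, interval -1.69 to -1.33). For Nefh to Nefl the corresponding difference was small, at 0.18 (0.03 to 0.32) before and -0.25 (-0.53 to 0.04) after injury. The difference between the assays was thus larger for Nefm than for Nefl and Nefh. Between Nefl and Nefh it differed by less, with opposite signs before and after injury. Only the interval before injury excluded no difference.

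The make-up differed less between the injured and the uninjured library of an assay. In bulk RNA the share of Nefm was 28.7% after injury (27.6% to 29.8%), that of Nefl 52.9% (51.7% to 54.2%) and that of Nefh 18.4% (17.4% to 19.3%). The log2 ratio of Nefl to Nefm was 0.33 lower after injury (-0.33, interval -0.45 to -0.21), and that of Nefh to Nefm 0.20 lower (-0.20, interval -0.35 to -0.05). The ratio of Nefh to Nefl differed by 0.13, with an interval of -2.9e-05 to 0.27 that just includes no change. In RiboTag RNA the shares after injury were 54.5% for Nefm (51.8% to 57.1%), 35.3% for Nefl (32.7% to 37.8%) and 10.3% for Nefh (8.75% to 12.0%). There the ratio of Nefl to Nefm differed by -0.11 (-0.29 to 0.07), which includes no change. Nefh was lower relative to Nefm by 0.40 (-0.40, interval -0.68 to -0.13) and relative to Nefl by -0.29 (-0.58 to 0.0013), the latter with an interval that just includes no change. In both assays Nefm was the member with the highest log2 injury change.

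**Figure D4:**
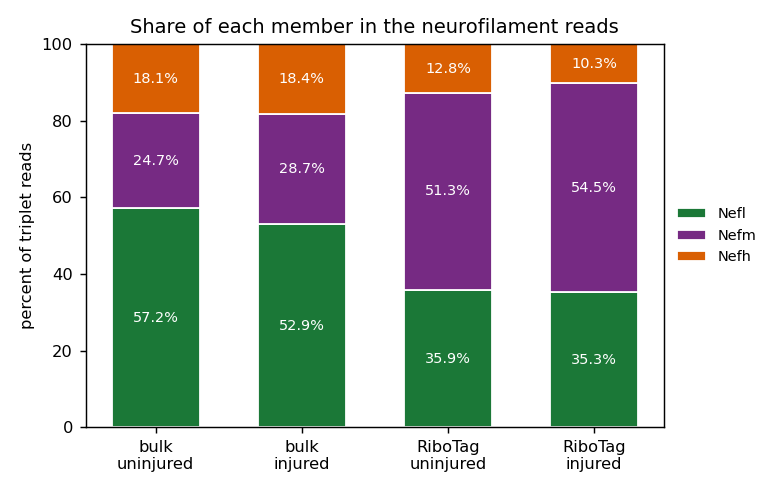
Percent of the neurofilament reads given by Nefl, Nefm and Nefh in each library, as stacked bars. Nefm gives 24.7% and 28.7% of them in the bulk libraries and 51.3% and 54.5% in the RiboTag libraries.

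These within-library injury changes were then compared between the assays, with no test since each group was 1 sample. The injury change of the Nefl to Nefm ratio differed between RiboTag and bulk RNA by 0.22 (0.0023 to 0.43), that of Nefh to Nefm by -0.21 (-0.52 to 0.11) and that of Nefh to Nefl by -0.42 (-0.74 to -0.10). The interval of the first only just excluded no difference, that of the second included it, and that of the last excluded it. Relative to the light chain, the heavy chain was thus higher after injury in bulk RNA and lower in RiboTag RNA, though neither value alone excluded no change.

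Transcripts with a like pattern were looked for among 1203 others with a mean of 50 or more reads over the 4 libraries. The measure was the Euclidean distance between log2 levels centred on their own mean over the 4 libraries, taken from the mean profile of the 3 members. The nearest was ENSMUST00000026704.14 at a distance of 0.14. It had 169.0 reads without and 153.9 with injury in bulk RNA and 161.4 and 31.0 reads in RiboTag RNA, with log2 injury changes of 0.03 (-0.29 to 0.35) in bulk and -0.97 (-1.59 to -0.43) in RiboTag RNA. Next was ENSMUST00000006629.14 at 0.24, with log2 injury changes of -0.06 (-0.34 to 0.21) and -0.97 (-1.47 to -0.52). The tables used here give neither a symbol. The members themselves lay farther from their own mean profile, at 0.54 (Nefl), 0.59 (Nefh) and 1.10 (Nefm), and 148 other transcripts were nearer to it than Nefm. The median distance of all others was 2.81.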

How the data were processed

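Values were 4 deposited tables, 1 per sample, each with 3 numbered columns of estimated counts per transcript and 3 of TPM, per the file headers. Estimated counts can hold fractions of a read. minimap2 and Salmon with builds GRCm39 and mm39 are named in the submitters' processing notes. What made the numbered columns, and any version or annotation, is not stated in the sources used here. The deposited TPM was proportional to the reads of its column, with a largest deviation of 0.0499% where at least 1 read was listed, so it is not scaled by length. No GRCm39 annotation was used, so no coordinates are given. RefSeq names come from GRCm38.p6, which listed all 3 symbols.

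Among the 12 combinations of member and library, the columns differed by a chi-square of 0.177 to 5.69 on 2 degrees of freedom. Columns were averaged and taken as 1 count per sample. Log2 ratios were taken per library total after adding 0.5 read. Exact conditional binomial intervals used counts rounded to whole numbers. The ratio change had a normal interval from the 4 counts and needed 20 reads in all and 5 in each assay. Bulk reads are single RNA molecules, whereas RiboTag reads were PCR-amplified without molecular identifiers and need not be independent. The interval code was tested on simulated data. Alternatives were TMM factors (edgeR 4.0.16) and size factors (DESeq2 1.42.0) over the 4 libraries, totals without the dominant pair, 5 reads added, a minimum of 50 reads or none, summed columns and each column left out. Comparison with transcripts of 500 or more reads, scaling to them, and the sum of Nefh with a near row were added after the data were seen. Transcripts named were the members and the 2 most like their mean profile. The members, lists and tests were chosen with earlier results of these data known.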

Additional observations from a re-analysis of the deposited data

Results flagged for a closer look

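The injury change went in opposite directions in the assays for each member. Relative to library totals, bulk values were higher and RiboTag values lower after injury, so that the RiboTag change minus the bulk change was -0.92 for Nefl, -1.14 for Nefm and -1.35 for Nefh on the log2 scale. With 1 sample per group this difference was not tested, and the bulk value of Nefl (0.07) had an interval that included no change. The RiboTag libraries also differed in depth (207597 and 79334 reads) and in the share of the dominant pair (31.2% and 40.9%). With the pair left out of the totals the differences were -0.70, -0.92 and -1.13. The part of depth in the result was not tested.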

How the results depend on the processing

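Leaving out each column in turn kept the members' ratios and shares within their intervals and the counts within 1.5 times. Without column 2 the injured RiboTag to bulk ratio of Nefh was -0.21 (-0.46 to 0.04), and without column 3 the bulk injury change of Nefl was 0.09 (0.02 to 0.16). Scaling moved many values, by a constant per comparison. For the RiboTag injury change, TMM gave -1.02 (Nefl) and -0.91 (Nefm) with 2 members counted, DESeq2 size factors gave -0.86 for Nefm, and totals without the dominant pair gave -0.64 and -0.52 with 0 members counted. Scaling to other abundant transcripts, added after the data were seen, gave -0.39, -0.28 and -0.68 (Nefh). These scalings moved the median of all transcripts from -0.21 to -0.37, -0.33 and 0.01 for TMM, DESeq2 and totals without the pair. For the uninjured RiboTag to bulk ratio of Nefl, Nefm and Nefh, TMM gave 1.21, 2.94 and 1.39, DESeq2 size factors 1.14, 2.87 and 1.32, and totals without the pair 1.40, 3.12 and 1.57. For the injured ratio, TMM gave 0.12 (Nefl) and 1.63 (Nefm), DESeq2 size factors 0.10 and 1.61, and totals without the pair 0.69 and 2.20, with Nefh turned to 0.45. Summed with the largest near row, which is not known to belong to it, Nefh was -0.061 there. That sum was added after the data were seen. For the ratio change, TMM gave -1.10 (Nefl) and -1.32 (Nefm), with 3 members counted, as with DESeq2 size factors, and totals without the pair -0.70 and -0.92, with 1 member counted.

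Counts over all transcripts depended on the read rule. For bulk injury (755 counted), a minimum of 50 reads gave 316, no minimum 1582 and summed columns 2071. For RiboTag injury (205; 55 higher, 150 lower) they gave 86, 441 and 1046, and 5 added reads gave 117 (60 higher, 57 lower). Totals without the pair gave 89 higher and 85 lower. The uninjured ratio (3617) gave 1927 at 50 reads and 7110 with summed columns. The injured ratio (2202) gave 1157 with 5 added reads and 5130 summed, and the ratio change (306) gave 119 and 1396. Summing triples the reads and narrows each interval. A read minimum sets which transcripts are compared. Added reads move the ratios of transcripts with few reads in favour of the shallower library. How far these account for the other counts was not tested. Depth limits Nefh most, at 143.7 reads in injured RiboTag RNA. No paired analysis was possible because each group has 1 sample and the labels give no replicate numbers.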

Other observations

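Reads that cannot be assigned to a single transcript can be divided between transcripts. No gene or sequence was at hand for the rows near the members. They were taken by position alone, which does not show that they share reads with a member. Within 10 rows on either side of Nefl the largest other count was at most 1.79% of its own in any library, and for Nefm at most 1.84%. Near Nefh the largest other count was 326.5 reads without and 318.3 with injury in bulk RNA, and 288.7 and 73.3 in RiboTag RNA. That is 28.0%, 26.6%, 34.6% and 51.0% of the Nefh count in the same order. Relative to library totals this row had a log2 injury change of 0.13 (-0.10 to 0.35) in bulk and -0.58 (-0.99 to -0.22) in RiboTag RNA. Whether it shares reads with Nefh was not tested. In the RefSeq table, 1 other gene lies between Nefl and Nefm, and Nefh lies on another chromosome.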
